A study of Mus musculus with 12 samples.

Results

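Transcripts of 9 genes of the circadian clock and its output were followed in the mouse pancreas: Nfil3, the proline and acidic amino acid rich (PAR) bZIP factors Dbp and Tef, the clock genes Clock, Per1, Per2, Cry1 and Nr1d1, and Bhlhe40. They were taken as every probe set to which the platform annotation gives a single symbol among these 9, which gave 14 of 22452 probe sets and 9 of 12335 genes. The samples were 12 pancreata, 3 in each of 4 groups, with 1 Affymetrix array per pancreas: mice lacking Mist1 (Mist1KO) given caerulein, Mist1KO mice given saline, wild type C57BL6 mice given caerulein, and wild type C57BL6 mice given saline. All were males of 2 to 4 months, injected every hour over 4 hours before total RNA of the whole pancreas was taken. The comparisons ask what caerulein does in the pancreas without Mist1, set beside the wild type pancreas. Caerulein mimics the gut hormone cholecystokinin, which makes acinar cells secrete digestive enzymes, and repeated high doses cause pancreatitis. Mist1 (gene Bhlha15) is a transcription factor of the basic helix-loop-helix family found in secretory cells. The allele and strain background of the Mist1KO mice, and the time of day at which the mice were killed, were not given in the sources used here. Transcripts of most of the 9 genes are known to follow the time of day in mouse tissues, and whether the groups were matched in time could not be read from the data.

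In the clock, CLOCK and its partner BMAL1 (Arntl) bind E-box sites and drive Per and Cry genes, Nr1d1, Dbp, Tef and Bhlhe40, and PER and CRY proteins then inhibit CLOCK and BMAL1. REV-ERB alpha, the product of Nr1d1, represses genes with its own response element, among them Arntl and Nfil3, where ROR factors activate. DBP and TEF activate transcription from D-box sites, and NFIL3 (E4BP4) binds the same sites as a repressor.

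Of the 9 genes, 7 matched the RefSeq table of promoter windows of GRCm38.p6, which run from 250 bases before to 50 after a transcript start. The windows of Nfil3, of the PAR bZIP genes Dbp and Tef, and of Per1 are shown because the results turn on these genes. Capitals mark matches to 5 motifs searched on both strands: the D-box TTATGNAA, the E-box CACGTG, the cAMP response element (CRE) TGACGTCA, its shorter form TGACGT, which the full element contains, and TAGGTCA, the core of the REV-ERB and ROR site. Nfil3 lies at chr13:52967209-52982878 and its window at chr13:52980990-52981289 on the minus strand. Dbp lies at chr7:45705100-45710203, with its window at chr7:45704997-45705296. Tef lies at chr15:81802673-81826863, with the first of its windows at chr15:81802423-81802722. Per1 lies at chr11:69095108-69109965, with the first of its windows at chr11:69098699-69098998.
Nfil3: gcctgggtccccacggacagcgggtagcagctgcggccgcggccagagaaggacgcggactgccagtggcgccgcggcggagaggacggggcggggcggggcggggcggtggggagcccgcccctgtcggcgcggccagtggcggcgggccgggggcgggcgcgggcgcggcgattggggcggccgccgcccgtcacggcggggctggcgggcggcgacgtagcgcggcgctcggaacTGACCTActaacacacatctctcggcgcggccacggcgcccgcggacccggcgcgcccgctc
Dbp: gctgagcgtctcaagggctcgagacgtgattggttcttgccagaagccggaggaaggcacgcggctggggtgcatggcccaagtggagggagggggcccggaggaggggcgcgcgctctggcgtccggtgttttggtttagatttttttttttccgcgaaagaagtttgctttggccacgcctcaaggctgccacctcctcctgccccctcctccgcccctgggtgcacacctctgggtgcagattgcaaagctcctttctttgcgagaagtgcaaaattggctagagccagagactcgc
Tef: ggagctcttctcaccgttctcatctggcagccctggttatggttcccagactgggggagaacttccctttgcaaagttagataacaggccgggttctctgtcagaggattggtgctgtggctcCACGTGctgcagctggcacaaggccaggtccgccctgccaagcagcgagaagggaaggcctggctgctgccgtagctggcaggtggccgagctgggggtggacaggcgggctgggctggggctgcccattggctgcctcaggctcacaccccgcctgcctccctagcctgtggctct
Per1: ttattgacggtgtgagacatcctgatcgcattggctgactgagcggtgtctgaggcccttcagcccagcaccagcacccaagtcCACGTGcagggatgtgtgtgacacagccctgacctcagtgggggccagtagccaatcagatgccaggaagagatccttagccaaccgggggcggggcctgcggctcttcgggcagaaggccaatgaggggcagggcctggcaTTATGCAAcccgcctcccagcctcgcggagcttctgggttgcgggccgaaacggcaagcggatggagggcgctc
The Nfil3 window held TGACCTA, the reverse complement of TAGGTCA, at position -12 from the start, a motif found in 2.61% of all 32851 windows. The first Per1 window held an E-box at -166 and a D-box at -24, motifs found in 7.15% and 3.38% of all windows. The first Tef window held an E-box at -127, and the Dbp window held none of the 5. The other Tef window had an E-box at -138, the other Per1 window had TGACGT at -132 and the Cry1 window had an E-box at -60. No window of Clock or Nr1d1 held a match. These are matches of letters and say nothing of binding.

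Values are the deposited linear signals, scaled by the authors to a common mean per array, without detection calls. Tests were limma's moderated tests on log2(signal + 18.7) over 15716 probe sets, with adjusted p under 0.05 as the threshold, and folds are on that scale and understate the change of dim genes. By its brightest probe set, Bhlha15 in Mist1KO read 42.6, 38.3 and 79.4 with caerulein and 89.9, 95.9 and 106.8 with saline, against wild type readings of 776.8, 729.5 and 838.5 with caerulein and 1601, 1619 and 1624.3 with saline. It was lower on every Mist1KO array than on every wild type array. Replicate 3 of Mist1KO after caerulein stood apart from the others of its group: on the first principal component it scored 28.9, against 47.4 and 52.1 for the other replicates, with all saline arrays between -41.8 and -29.8. For the changes with caerulein in Mist1KO whose groups it made overlap or whose call it decided, the value without it is also given. In whole tissue, fewer cells of a type and less RNA per cell cannot be told apart.

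Of the 14 probe sets, 11 of 7 genes were bright enough to be tested, and both probe sets of Per2 and the single one of Cry1 were not. In Mist1KO pancreata caerulein raised Nfil3 and Bhlhe40 and lowered Tef, leaving 4 of the 7 genes short of the threshold, in a comparison that called 10.5% of all probe sets higher and 13.4% lower. In wild type pancreata it raised Nfil3 and Bhlhe40 and lowered Dbp, Tef and Nr1d1, with 2 short of the threshold, against 9.19% of all probe sets called higher and 9.74% lower. The median change of the 7 genes was -0.45 on the log2 scale in Mist1KO and -0.07 in wild type, beside -0.14 and -0.16 over all 9481 genes tested. A gene with several probe sets is counted here by its brightest. Both caerulein comparisons have saline groups of their own, so their log2 differences share no arrays. Their SEs and p-values do, since the spread of each probe set was estimated from all 12 arrays.

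**Figure D1:**
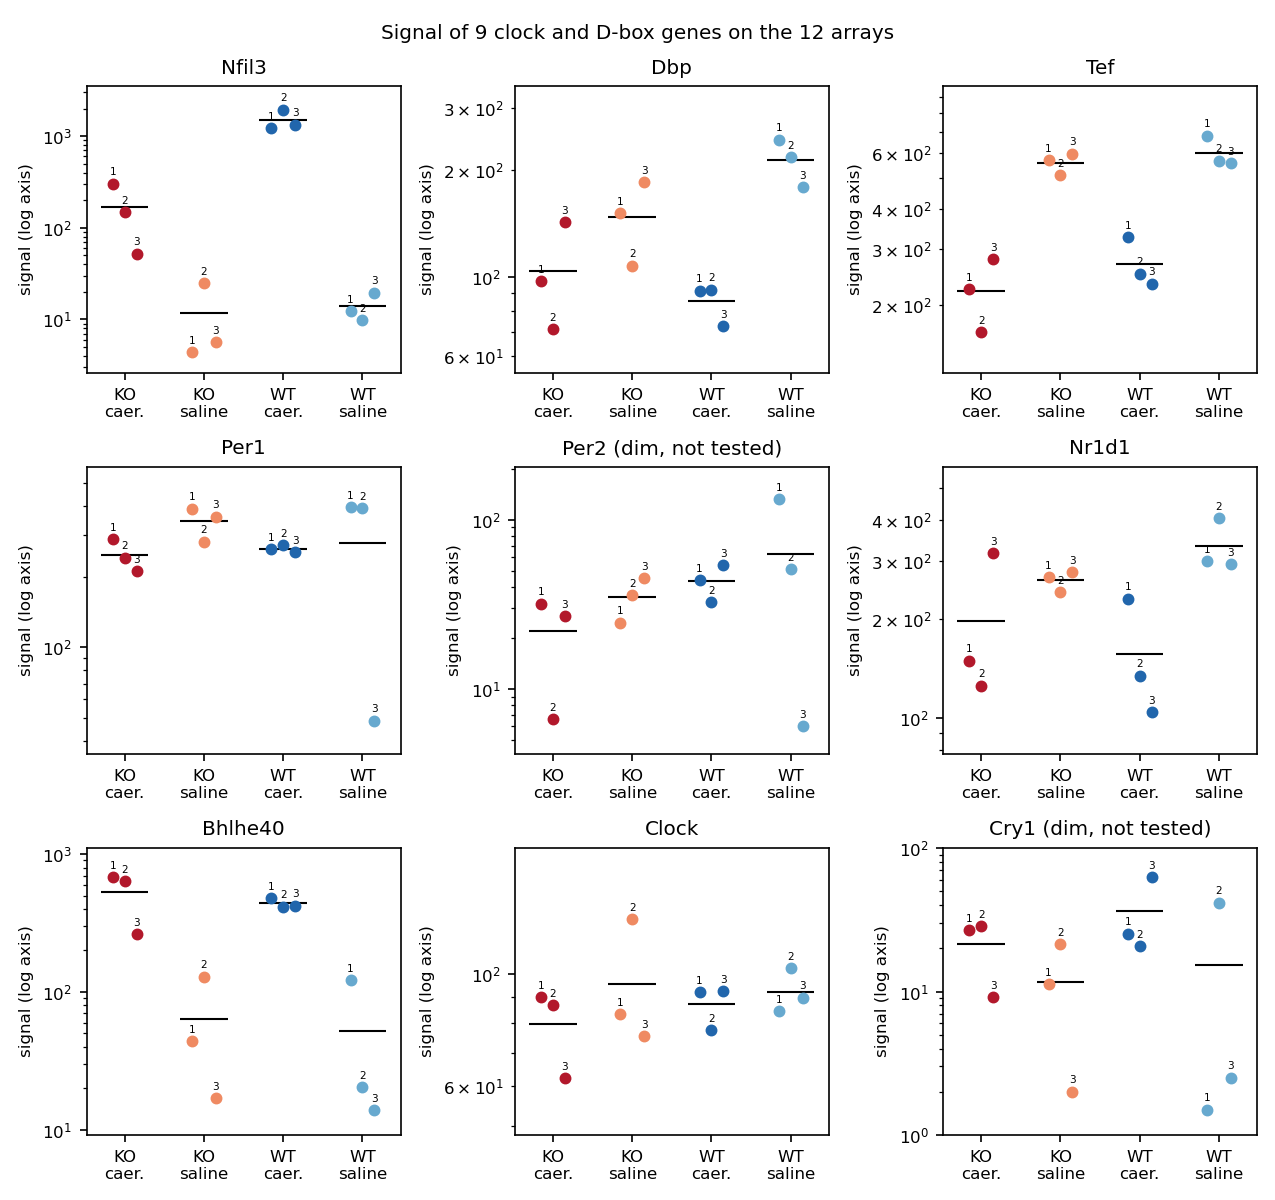
Deposited signal (log axis, a separate range per gene) of the brightest probe set of each of the 9 genes on the 12 arrays; points are pancreata numbered by replicate and lines are group means. Nfil3 reaches 52.3 to 303.4 in Mist1KO after caerulein and 1219 to 1949.4 in wild type after caerulein, with all saline arrays at or below 24.9.

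Of the 7 genes tested, Nfil3 differed most between the genotypes after caerulein. Its signal was 303.4, 147.4 and 52.3 in Mist1KO after caerulein, against 4.4, 24.9 and 5.6 in Mist1KO after saline. In wild type it was 1219, 1949.4 and 1335.7 after caerulein, against 12.3, 9.8 and 19.5 after saline. Caerulein arrays lay above saline arrays in both genotypes without overlap, and the lowest wild type caerulein array was above the highest Mist1KO one. Nfil3 rose 5.37-fold in Mist1KO (95% interval 2.86 to 10.1, limma adjusted p = 0.000829) and 46.1-fold in wild type (24.5 to 86.6, adjusted p = 1.27e-06). The wild type rise ranked 2 among all rises in that comparison. The rise in Mist1KO differed from that in wild type by -3.10 ± 0.60 on the log2 scale (SE, n = 3 per group; adjusted p = 0.0141), and Nfil3 was the 1 gene of the 7 past the threshold in this test of the interaction, which called 1.78% of all probe sets lower and 1.51% higher.

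The size of the Nfil3 rises depends on how saline values near the floor are treated. Mean saline signals were 11.6 ± 11.5 in Mist1KO and 13.9 ± 5.04 in wild type (SD, n = 3 each), both under the offset of 18.7. With an offset of 1 the rises became 3.78 and 6.68 on the log2 scale in Mist1KO and wild type, and the interaction, -2.90 ± 0.89, lost its call at adjusted p = 0.109. With an offset of 50 the interaction was -2.92 at adjusted p = 0.00355. Without replicate 3 of Mist1KO after caerulein, the array closest to the saline values, the Mist1KO rise was 2.99 and the interaction -2.53 at adjusted p = 0.0107. The size of the difference between genotypes after caerulein does not use the saline arrays, while its SE and adjusted p do, through the spread that all groups share. Means after caerulein were 168 ± 127 in Mist1KO and 1501 ± 392 in wild type, a 9.54-fold lower level in Mist1KO (log2 difference -3.25 ± 0.42, adjusted p = 0.000148). The call of this difference held under all 21 alternatives, among them the fit to only the groups compared. With an offset of 1 that difference was -3.46 at adjusted p = 0.00192.

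Dbp, the PAR bZIP activator with a strong daily rhythm in many mouse tissues, fell in wild type. The brightest Dbp probe set, 1418174_at, read 97.4, 71.3 and 142.8 in Mist1KO after caerulein, against 151.2, 107.6 and 185 in Mist1KO after saline. In wild type it read 91.6, 92.2 and 72.6 after caerulein, against 243.9, 217.9 and 179 after saline. The wild type groups were apart and the Mist1KO groups overlapped, with replicate 3 the highest of the Mist1KO caerulein arrays. In Mist1KO the log2 difference was -0.46 ± 0.23 (adjusted p = 0.181), and -0.68 ± 0.23 without that array (adjusted p = 0.0504). The wild type fall was 2.22-fold (-1.15 ± 0.23, adjusted p = 0.00334). The difference between the genotypes, 0.70 ± 0.33, did not pass (adjusted p = 0.308), with an interval for its fold of 0.993 to 2.64, so a weaker fall in Mist1KO was not shown.

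The other Dbp probe set, 1438211_s_at, moved more. It read 10.6, 8.2 and 104.3 in Mist1KO after caerulein, against 92.9, 208.4 and 189.5 in Mist1KO after saline. Wild type arrays read 35, 40.8 and 23.7 after caerulein, against 337.3, 307.4 and 135.2 after saline. Replicate 3 of Mist1KO after caerulein was again within the saline range and made these groups overlap. The probe set fell in Mist1KO (-1.92 ± 0.50, adjusted p = 0.0126) and in wild type (-2.35 ± 0.50, adjusted p = 0.00495). Without that array the Mist1KO fall was -2.63 ± 0.38 (adjusted p = 0.000263). The Mist1KO call was lost without replicate 1 (adjusted p = 0.0627) or 2 (0.0665) of the caerulein group, or without replicate 2 of the saline group (0.0539).

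Tef, the second PAR bZIP activator, fell in both genotypes. The brightest Tef probe set, 1424175_at, read 224.4, 164.6 and 278.6 in Mist1KO after caerulein, against 569.9, 511.9 and 597.9 in Mist1KO after saline. The wild type values were 326.6, 251.1 and 233.7 after caerulein, against 681.3, 568.8 and 559.1 after saline. All 6 caerulein arrays lay below all 6 saline arrays. The fall was 2.44-fold in Mist1KO (-1.29 ± 0.18, adjusted p = 0.000121) and 2.16-fold in wild type (-1.11 ± 0.18, adjusted p = 0.000551). The difference of the falls was -0.17 ± 0.25, with a 95% interval of -0.71 to 0.36.

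The dimmer Tef probe sets gave less. Probe set 1438033_at in Mist1KO read 30.5, 46 and 66.7 after caerulein against 43.8, 58.6 and 57.5 after saline (-0.15 ± 0.25, adjusted p = 0.725), and without replicate 3 of the caerulein group it gave -0.35 (adjusted p = 0.393). It fell in wild type, at 35.8, 34.8 and 35.5 after caerulein against 101.3, 77.2 and 69.5 after saline (-0.89 ± 0.25, adjusted p = 0.0224). That call was lost without wild type saline replicate 1 (adjusted p = 0.0844), or wild type caerulein replicate 2 (0.0547) or 3 (0.0559). Probe set 1450184_s_at scattered within every group and passed in neither genotype, with values from 15 to 136.4 in Mist1KO after caerulein, 91.7 to 125 in Mist1KO after saline, 27.4 to 118.1 in wild type after caerulein and 62.4 to 208.9 in wild type after saline.

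**Figure D2:**
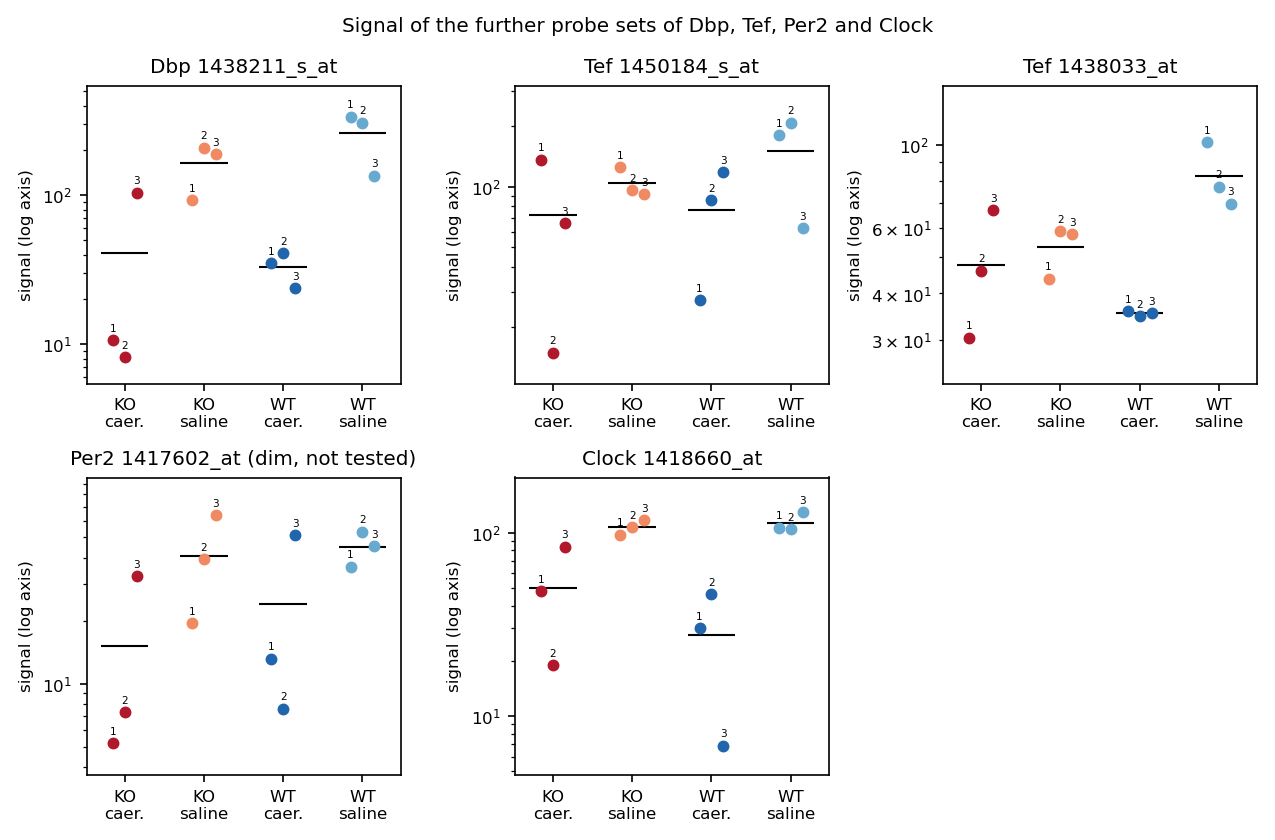
Deposited signal (log axis) of the further probe sets of Dbp, Tef, Per2 and Clock on the 12 arrays; points are pancreata numbered by replicate and lines are group means. For Dbp 1438211_s_at, replicate 3 of Mist1KO after caerulein, at 104.3, lies with the saline arrays, and Clock 1418660_at is at or below 83.7 on every caerulein array.

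Bhlhe40 (Dec1), a repressor that competes at E-boxes and an early response gene in many mouse cells, rose in both genotypes. Its signal was 684.4, 639.5 and 263.7 in Mist1KO after caerulein, against 43.8, 129.4 and 17 in Mist1KO after saline. In wild type it was 479.1, 416.3 and 422.3 after caerulein, against 121.3, 20.4 and 13.9 after saline. The 6 caerulein arrays all lay above the 6 saline arrays, with replicate 3 of Mist1KO the lowest caerulein array. The rise was 7.34-fold in Mist1KO (95% interval 3.25 to 16.6, adjusted p = 0.00164) and 8.12-fold in wild type (3.59 to 18.4, adjusted p = 0.00155). The interaction was -0.15 ± 0.77 (adjusted p = 0.953), and its 95% interval ran from -1.81 to 1.52 on the log2 scale, so a difference between the genotypes was neither shown nor bounded tightly.

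Per1, a CLOCK target that also answers acute signals through CREB in mouse cells, was decided by 1 array. It read 288.2, 241.1 and 211.4 in Mist1KO after caerulein, against 390.4, 281.7 and 360 in Mist1KO after saline. In wild type it read 262.8, 272.3 and 254.9 after caerulein, against 396.3, 391.3 and 48.7 after saline. The value 48.7 of wild type saline replicate 3 was the lowest of the 12, far under the other saline arrays. With it Per1 passed in neither genotype (-0.45 ± 0.49 in Mist1KO, adjusted p = 0.564; 0.32 ± 0.49 in wild type, adjusted p = 0.686). Without it the difference passed in both (-0.45 ± 0.15 in Mist1KO, adjusted p = 0.0425; -0.55 ± 0.16 in wild type, adjusted p = 0.0400), and the wild type direction was turned round. The Mist1KO value kept its size, since that array is in neither Mist1KO group, and only its SE, which all groups share, differed.

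Per2, whose protein works with PER1, was dim. Probe set 1417603_at in Mist1KO read 31.9, 6.6 and 27 with caerulein against 24.6, 35.8 and 45 with saline. In wild type the readings were 44, 32.5 and 54 with caerulein against 131.8, 50.8 and 6 with saline. Wild type saline replicate 3 was the lowest array here too. The other Per2 probe set ranged from 5.2 to 32.7 in Mist1KO after caerulein, 19.4 to 63.8 in Mist1KO after saline, 7.6 to 51 in wild type after caerulein, and 36.2 to 53.1 in wild type after saline. Cry1, the partner repressor of PER proteins, read 9.1 to 28.5, 2 to 21.5, 20.8 to 62.5 and 1.5 to 41.6 in the same groups in that order. Without the filter on dim probe sets none of these 3 passed in any comparison, the smallest adjusted p being 0.208 for Per2 1417602_at with caerulein in Mist1KO (-0.84 ± 0.41).

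The probe sets of Clock, the activator of the loop, disagreed. The brighter one over the 12 arrays, 1418659_at, read 90.1, 86.8 and 62.3 in Mist1KO after caerulein, against 83.3, 128.7 and 75.4 in Mist1KO after saline. On the wild type arrays it read 92.2, 77.5 and 92.7 after caerulein, against 84.6, 102.8 and 89.9 after saline. These groups overlapped and nothing passed (-0.20 ± 0.21 in Mist1KO, adjusted p = 0.538; -0.07 ± 0.21 in wild type, adjusted p = 0.860). The other, 1418660_at, read 47.9, 18.9 and 83.7 in Mist1KO after caerulein, against 97.3, 106.8 and 117.3 in Mist1KO after saline. Its wild type readings were 30.2, 46.1 and 6.9 after caerulein, against 106.4, 104.6 and 129.3 after saline. All its caerulein arrays lay below all its saline arrays. In Mist1KO the difference was -0.98 ± 0.36 (adjusted p = 0.0664), and -1.33 without replicate 3 of the caerulein group (adjusted p = 0.0190). In wild type the probe set fell 3.04-fold (-1.60 ± 0.36, adjusted p = 0.00720). What sets the Clock probe sets apart was not tested.

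Nr1d1, the repressor of the second loop, fell in wild type. It read 149.4, 125.2 and 316 in Mist1KO after caerulein, against 267.6, 240.7 and 277.8 in Mist1KO after saline. Wild type arrays read 230.1, 134.3 and 103.9 after caerulein, against 298.8, 405.5 and 292.6 after saline. Replicate 3 of Mist1KO after caerulein was above its saline group and the other caerulein arrays were below theirs. In Mist1KO the difference was -0.48 ± 0.30 (adjusted p = 0.274), and -0.85 ± 0.25 without replicate 3 of the caerulein group (adjusted p = 0.0277). The wild type fall was 2.08-fold (-1.06 ± 0.30, adjusted p = 0.0227), a call lost without wild type saline replicate 2 (adjusted p = 0.0808), or wild type caerulein replicate 2 (0.0671) or 3 (0.102). The interaction was 0.57 ± 0.42 (adjusted p = 0.548), so a difference between the genotypes was not shown.

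**Figure D3:**
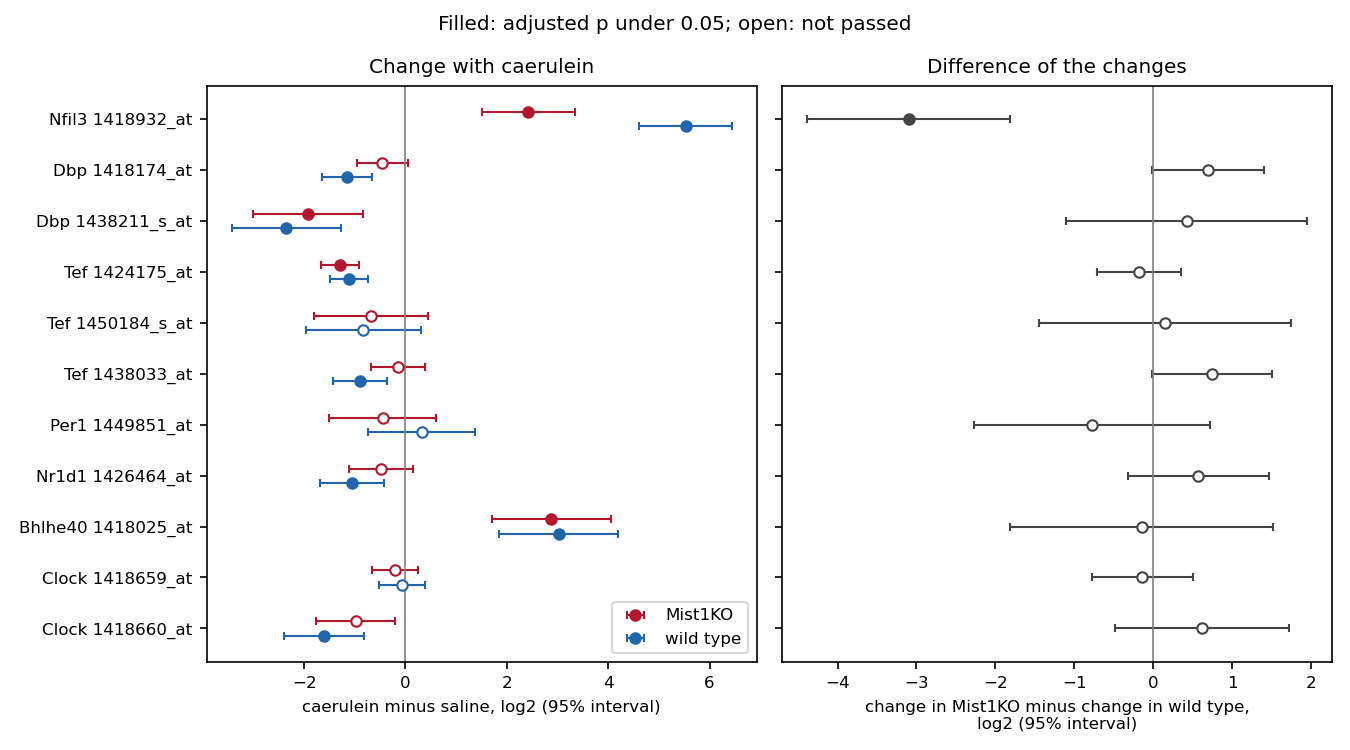
Log2 change with caerulein of the 11 tested probe sets in Mist1KO and wild type (left) and the change in Mist1KO minus that in wild type (right); bars are 95% intervals and filled points have an adjusted p under 0.05. Nfil3, at -3.10, is the 1 filled point on the right.

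Without caerulein, loss of Mist1 left these genes short of the threshold: 0 of the 7 passed for Mist1KO against wild type after saline, a comparison that called 6.84% of all probe sets higher and 5.74% lower. The limma log2 differences ran from -0.50 for Dbp to 0.67 for Per1, with adjusted p of 0.178 and 0.396. At an unadjusted p under 0.05, 0 of the 7 passed. Without wild type saline replicate 3 the Per1 difference was -0.20 ± 0.16 (adjusted p = 0.460). Nr1d1 had the saline groups apart, with Mist1KO below wild type (262 ± 19.2 and 332 ± 63.5, SD, n = 3 each), but did not pass (-0.31 ± 0.30, adjusted p = 0.525). After caerulein only Nfil3 of the 7 passed, in a comparison that called 10.2% of all probe sets lower and 10.0% higher, and the others lay between -0.28 for Tef and 0.26 for Nr1d1.

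By mean signal, the genes can be placed in order over the 4 groups. Nfil3 was highest in wild type after caerulein, then Mist1KO after caerulein, with both saline groups at the bottom and overlapping. Bhlhe40 averaged 529 ± 231 in Mist1KO after caerulein, 63.4 ± 58.7 in Mist1KO after saline, 439 ± 34.7 in wild type after caerulein and 51.9 ± 60.2 in wild type after saline (SD, n = 3 each), so both caerulein groups came first and did not differ beyond their spread. Dbp 1418174_at averaged 103.8 ± 36.2, 148 ± 38.8, 85.5 ± 11.1 and 213.6 ± 32.7 in the same groups. Wild type after saline was thus highest for Dbp, followed by Mist1KO after saline, Mist1KO after caerulein and wild type after caerulein, and no step between neighbours passed the test. Nr1d1 had the same order, at 197 ± 104, 262 ± 19.2, 156 ± 65.9 and 332 ± 63.5 in those groups, again with no step between neighbours that passed. Tef 1424175_at averaged 222.5 ± 57.0, 559.9 ± 43.9, 270.5 ± 49.4 and 603 ± 67.9, with the saline groups overlapping at the top and the caerulein groups overlapping at the bottom.

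Further genes of the clock were read from a list of 24, of which 18 had a probe set and 14 were tested. The counts of this and the later lists are to be read beside the shares of all probe sets called, given above for each comparison. In Mist1KO 2 rose and 4 fell with caerulein (median -0.17), and in wild type 4 rose and 2 fell (median -0.09), beside medians of -0.14 and -0.16 over all genes tested. Single arrays moved these counts: 1 fell in Mist1KO without replicate 2 of either Mist1KO group, and 2 without replicate 1 of either or without Mist1KO saline replicate 3. In Mist1KO 1 rose without saline replicate 1 or 3 or caerulein replicate 1 or 2, and in wild type 2 rose without replicate 1 or 3 of either wild type group.

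Rora, which activates from the site that REV-ERB alpha represses, went opposite ways by its brightest probe set. It read 99.1, 98.3 and 89.1 in Mist1KO after caerulein, against 170.5, 174.8 and 149.4 in Mist1KO after saline. The wild type values were 292.2, 330.2 and 361 after caerulein, against 161.5, 203.3 and 180.5 after saline. The saline groups overlapped, while after caerulein all Mist1KO arrays were below and all wild type arrays above them. Rora fell in Mist1KO (-0.68 ± 0.14, adjusted p = 0.00325), rose in wild type (0.79 ± 0.14, adjusted p = 0.00158), and the difference of these changes was -1.47 ± 0.20 (adjusted p = 0.00243). It was the 1 gene of the 14 whose interaction passed. Of its dimmer probe sets, 1424034_at gave -1.11 (adjusted p = 0.0238) and 1424035_at -0.60 (adjusted p = 0.524) for the same difference. With caerulein, 1424034_at fell in Mist1KO (-0.66, adjusted p = 0.0120) and gave 0.45 in wild type (adjusted p = 0.0863). Probe set 1424035_at gave -0.72 in Mist1KO (adjusted p = 0.0935) and -0.13 in wild type (adjusted p = 0.804), so a rise in wild type passed by the brightest probe set only.

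Nr1d2, which encodes REV-ERB beta, fell in both genotypes by its brightest probe set (-0.92 ± 0.25 in Mist1KO, adjusted p = 0.0156; -1.06 ± 0.25 in wild type, adjusted p = 0.00888). Leaving out replicate 1 or 2 of either Mist1KO group ended the Mist1KO call (adjusted p up to 0.0815), and the other Nr1d2 probe set read -0.24 in Mist1KO (adjusted p = 0.535) and fell in wild type (-0.92, adjusted p = 0.0179). Per3, the third PER gene, read -0.43 ± 0.17 in Mist1KO (adjusted p = 0.0953) and fell in wild type (-0.92 ± 0.17, adjusted p = 0.00213). Hlf, the third PAR bZIP factor, was lower in Mist1KO than in wild type after saline (-0.73 ± 0.21, adjusted p = 0.0384) and after caerulein (-0.90 ± 0.21, adjusted p = 0.00862). Its fall with caerulein in Mist1KO (-0.65 ± 0.21, adjusted p = 0.0382) and the saline difference were lost under 8 and 9 of 21 alternatives, and a dimmer Hlf probe set did not pass. Csnk1d, a kinase that phosphorylates PER proteins, was higher in Mist1KO than in wild type after saline (0.43 ± 0.11, adjusted p = 0.0242) and after caerulein (0.97 ± 0.11, adjusted p = 6.12e-05). That saline call was lost under 6 of 21 alternatives. Csnk1d probe sets disagreed after saline: 1418889_a_at (1.96, adjusted p = 0.000933) and 1449932_at (0.58, adjusted p = 0.00919) were also higher in Mist1KO, and 1415825_s_at did not pass (0.19, adjusted p = 0.518). Probe set 1456727_a_at was lower in Mist1KO after saline (-0.47, adjusted p = 0.0344) and gave -0.03 after caerulein (adjusted p = 0.916). With caerulein 1418889_a_at rose in Mist1KO (1.07, adjusted p = 0.0160) and wild type (1.85, adjusted p = 0.000549), while 1456727_a_at fell in wild type (-0.49, adjusted p = 0.0205). Nono, an RNA- and DNA-binding partner of PER proteins, was also higher in Mist1KO after saline (0.94 ± 0.17, adjusted p = 0.00376) and after caerulein (0.70 ± 0.17, adjusted p = 0.0114). With caerulein it fell in Mist1KO (-0.59 ± 0.17, adjusted p = 0.0222), a call lost under 5 of 21 alternatives, and gave -0.36 ± 0.17 in wild type (adjusted p = 0.172). Arntl, the partner of CLOCK, did not pass (0.28 ± 0.23 in Mist1KO, adjusted p = 0.425; 0.37 ± 0.23 in wild type, adjusted p = 0.292). Fbxw11, a ubiquitin ligase subunit that marks PER proteins for destruction among other substrates, rose in both (1.67 ± 0.12 in Mist1KO, adjusted p = 4.29e-07; 2.01 ± 0.12 in wild type, adjusted p = 2.36e-07).

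**Figure D4:**
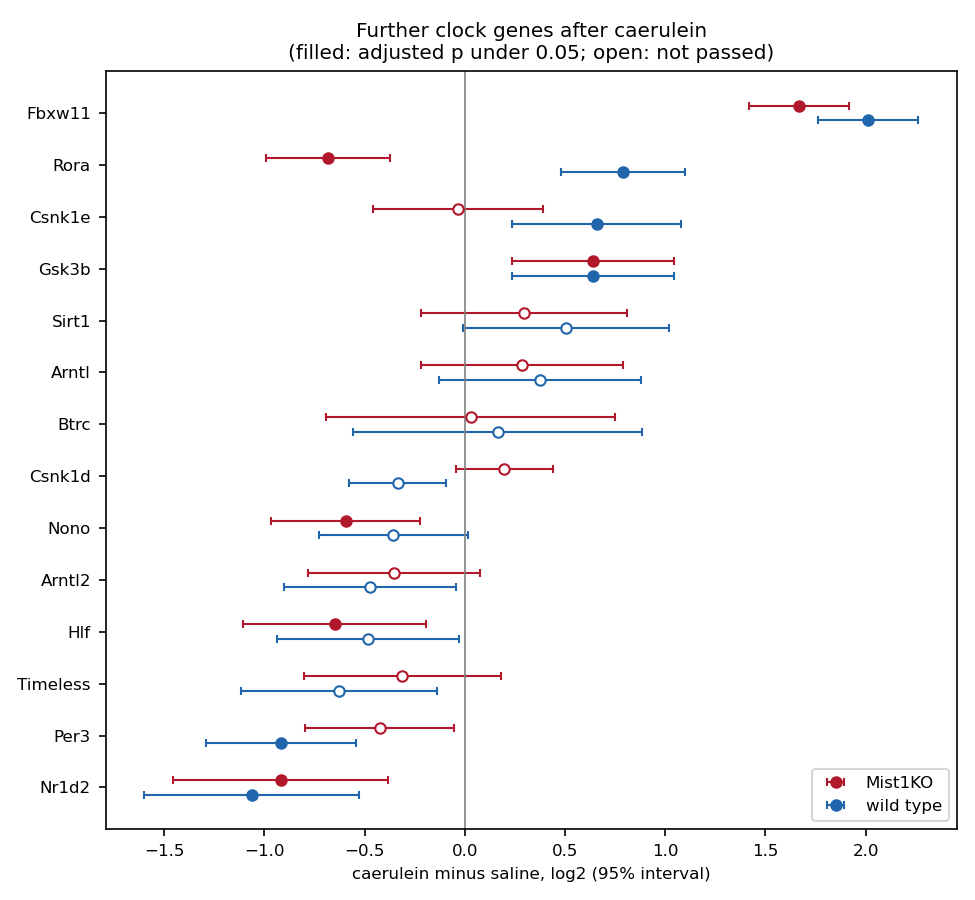
Log2 change with caerulein of the 14 tested genes of the clock list in Mist1KO and wild type; bars are 95% intervals and filled points have an adjusted p under 0.05. Rora lies at -0.68 in Mist1KO and 0.79 in wild type.

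Genes downstream of the PAR bZIP factors and the clock were read from a list of 15. Of 8 tested, 0 rose and 1 fell in Mist1KO (median -0.21), and 0 passed in wild type (median -0.17), where limma gave 0 at an unadjusted p under 0.05 and 1 rose without wild type saline replicate 1. The gene that fell was Usp2, a deubiquitinase with daily rhythm in mouse liver, at 101.1, 102.1 and 246.3 in Mist1KO after caerulein against 393.8, 484.7 and 467.6 in Mist1KO after saline (-1.57 ± 0.32, adjusted p = 0.00253). In wild type the difference was -0.35 ± 0.32 (adjusted p = 0.480), and the interaction, -1.23 ± 0.45, did not pass (adjusted p = 0.177). Wee1, Nampt, Alas1 and Elovl3 were among those that passed in neither genotype.

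Genes that earlier work in mouse cells describes as repressed by NFIL3 did not move one way. Of 5 tested out of 7 listed, 1 rose and 1 fell in Mist1KO (median -0.04), and 2 rose and 1 fell in wild type (median -0.23). Fgf21, a hormone of the pancreas and liver, rose in wild type. It read 7.8, 8.5 and 12.6 in Mist1KO after caerulein, against 7.9, 8.9 and 14.7 in Mist1KO after saline. Its wild type readings were 485.6, 1935.2 and 1317.9 after caerulein, against 12.6, 21.8 and 18.7 after saline. The Mist1KO groups overlapped at the dim end, and the wild type rise was 4.92 ± 0.38 (adjusted p = 1.27e-06). The interaction was -4.96 ± 0.53 (adjusted p = 0.000466). All 6 Mist1KO readings lie under the offset of 18.7 and whether they are above background is unknown, so the sizes set against them depend on the offset: the interaction was -5.97 with an offset of 1 and -4.09 with an offset of 50. Cebpd, a stress transcription factor, rose in both by its brightest probe set (2.96 ± 0.24 in Mist1KO, adjusted p = 1.18e-06; 2.98 ± 0.24 in wild type, adjusted p = 1.67e-06). The dimmer Cebpd probe set, 1456605_at, passed in neither (0.95 in Mist1KO, adjusted p = 0.115; 0.97 in wild type, adjusted p = 0.118). Il12b, a cytokine subunit, fell in wild type (-0.96 ± 0.29, adjusted p = 0.0335), a call lost under 9 of 20 alternatives, among them without replicate 2 or 3 of either wild type group. Foxo1, a factor of insulin signalling, fell in Mist1KO (-0.75 ± 0.21, adjusted p = 0.0179), a call lost without Mist1KO saline replicate 3 or Mist1KO caerulein replicate 1.

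Glucocorticoids and CREB signalling both set Per1 and other clock genes in mouse tissues, and their target lists were mixed. All 10 glucocorticoid response genes were tested: 1 rose and 5 fell in Mist1KO (median -0.56), and 2 rose and 3 fell in wild type (median -0.04). Fkbp5, a co-chaperone of the glucocorticoid receptor, fell in both (-1.30 ± 0.16 in Mist1KO, adjusted p = 5.84e-05; -1.17 ± 0.16 in wild type, adjusted p = 0.000203). Sgk1, a kinase induced by glucocorticoids, also fell in both (-1.80 ± 0.33 in Mist1KO, adjusted p = 0.00131; -1.79 ± 0.33 in wild type, adjusted p = 0.00186). Lcn2, a secreted lipocalin, rose in both (2.58 ± 0.36 in Mist1KO, adjusted p = 0.000143; 1.31 ± 0.36 in wild type, adjusted p = 0.0210). Klf9, a Krueppel-like factor, fell in Mist1KO (-0.55 ± 0.13, adjusted p = 0.00654) and gave 0.19 ± 0.13 in wild type (adjusted p = 0.340). Its dimmer probe sets 1428289_at and 1456341_a_at also fell in Mist1KO (-1.05, adjusted p = 0.00160; -0.59, adjusted p = 0.0264). Both rose in wild type (1.06, adjusted p = 0.00198; 1.08, adjusted p = 0.000754), and the other Klf9 probe sets passed in neither. Nr3c1, the glucocorticoid receptor, fell in both (-0.57 ± 0.17 in Mist1KO, adjusted p = 0.0250; -0.84 ± 0.17 in wild type, adjusted p = 0.00326). The Mist1KO call of Nr3c1 was lost under 6 of 21 alternatives. Errfi1, a feedback inhibitor of the EGF receptor, rose in wild type (2.18 ± 0.40, adjusted p = 0.00172), with 1.11 ± 0.40 in Mist1KO (adjusted p = 0.0590). Replicate 3 of Mist1KO after caerulein made those Mist1KO groups overlap, at 269.1 beside 484.9 and 769, with saline arrays up to 296.1. Without replicate 3 of Mist1KO after caerulein the Mist1KO count was 2 that rose and 4 that fell, and 2 also rose without Mist1KO saline replicate 1, wild type saline replicate 1 or 3, or wild type caerulein replicate 2. In wild type 1 rose without saline replicate 2 or caerulein replicate 2 or 3.

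Of the 10 CREB and calcium response genes tested out of 15 listed, 1 rose and 1 fell in Mist1KO (median 0.20), and 3 rose and 0 fell in wild type (median 0.22). Crem, a CREB family factor, rose in both by its brightest probe set (1.30 ± 0.22 in Mist1KO, adjusted p = 0.000626; 1.89 ± 0.22 in wild type, adjusted p = 4.57e-05). The dimmer Crem probe set, 1418322_at, gave 0.61 in Mist1KO (adjusted p = 0.0518) and rose in wild type (1.42, adjusted p = 0.000351). Fos, an immediate early factor, rose in wild type (2.36 ± 0.36, adjusted p = 0.000432). In Mist1KO Fos gave 0.78 ± 0.36 (adjusted p = 0.139), with all caerulein arrays above all saline arrays. Ppargc1a, a coactivator of energy metabolism, fell in Mist1KO (-1.12 ± 0.24, adjusted p = 0.00349), and Nr4a1, an immediate early nuclear receptor, rose in wild type (1.12 ± 0.30, adjusted p = 0.0198). In Mist1KO Nr4a1 gave 0.35 ± 0.30 (adjusted p = 0.458), at 254.5, 253.5 and 87.1 after caerulein against 135.7, 143.5 and 134.2 after saline. Replicate 3 after caerulein thus made these groups overlap. In Mist1KO 2 rose and 1 fell without wild type caerulein replicate 2, and 2 rose and 2 fell without Mist1KO caerulein replicate 3. Nr4a2, a related nuclear receptor, was lower in Mist1KO than in wild type after caerulein (-1.10 ± 0.17, adjusted p = 0.000464). Fos and Crem were lower in Mist1KO than in wild type after caerulein (-2.03 ± 0.36, adjusted p = 0.00145; -1.10 ± 0.22, adjusted p = 0.00305), but the interaction passed for 0 of the 10, with adjusted p = 0.122 for Fos and 0.368 for Crem. At an unadjusted p under 0.05, 3 of the 10 interactions passed, and 1 passed the threshold without Mist1KO caerulein replicate 3 or wild type caerulein replicate 1.

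Between the genotypes, the clock list had 2 genes higher and 1 lower in Mist1KO after saline, and 2 higher and 3 lower after caerulein. The saline counts became 1 higher and 0 lower without wild type saline replicate 1 or 2, or Mist1KO saline replicate 1 or 3, and 2 higher and 0 lower without Mist1KO saline replicate 2. Of the downstream genes 0 passed in limma's test after saline, also at an unadjusted p under 0.05, and 1 was higher without wild type saline replicate 1. After caerulein 1 was lower in Mist1KO, Avp (-0.91 ± 0.23, adjusted p = 0.0121), which encodes vasopressin. That count was 0 without wild type caerulein replicate 2, and 2 without Mist1KO caerulein replicate 3 or wild type saline replicate 1 or 3. Of the NFIL3-repressed list, Fgf21 was lower in Mist1KO after caerulein (-5.28 ± 0.38, adjusted p = 8.55e-07). The glucocorticoid list had 2 higher in Mist1KO after saline, Fkbp5 (0.63 ± 0.16, adjusted p = 0.0238) and Tsc22d3, a glucocorticoid-induced leucine zipper protein (0.83 ± 0.24, adjusted p = 0.0370). Dimmer probe sets did not pass: Tsc22d3 1425281_a_at (0.22, adjusted p = 0.573) and 1425557_x_at (0.05, adjusted p = 0.848), and Fkbp5 1448231_at (0.98, adjusted p = 0.182). The glucocorticoid count after saline was 0 without Mist1KO saline replicate 1 or 3 or wild type saline replicate 3, and 1 without replicate 2 of either saline group. After caerulein Lcn2 (1.39 ± 0.36, adjusted p = 0.0148), Nr3c1 (0.59 ± 0.17, adjusted p = 0.0255) and Fkbp5 (0.50 ± 0.16, adjusted p = 0.0455) were higher and Klf9 was lower (-0.65 ± 0.13, adjusted p = 0.00303), so 3 were higher and 1 lower, and 1 and 1 without any one of the 3 Mist1KO caerulein arrays. Of these calls, that of Fkbp5 was lost under 14 of 21 alternatives, that of Nr3c1 under 4, that of Lcn2 under 1 and that of Klf9 under 0. The CREB list had 1 lower after saline, Creb3l2 (-0.68 ± 0.17, adjusted p = 0.0210), a CREB family factor of the endoplasmic reticulum, which was lost without Mist1KO saline replicate 1 or 2 or wild type saline replicate 1, and 4 lower after caerulein, Nr4a2, Fos, Crem and Creb3l2 (-0.57 ± 0.17, adjusted p = 0.0327).

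The genes whose log2 values correlated most with those of Nfil3 over the 12 arrays were Desi2, Mfsd6l, Egr1, Shmt2 and Atf3, with Pearson r of 0.979, 0.979, 0.979, 0.975 and 0.975. Mean Egr1 signal, for example, was 1047 in Mist1KO after caerulein, 207 in Mist1KO after saline, 4707 in wild type after caerulein and 192 in wild type after saline. For Dbp the nearest were Tm2d3 (r = 0.956), 1110059E24Rik (0.932), Scp2 (0.915), Sephs2 (0.904) and Crx (0.897). For Per1 they were Col11a2 (0.940), Trbv1 (0.922), Slc9a8 (0.916), Ndufc1 (0.901) and Pex6 (0.872). These values describe 12 arrays that fall into 4 groups and share their scaling.

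Markers of the tissue moved with some of these results. The 7 acinar markers found of 9 listed summed to signals of 46710 to 70866 in Mist1KO after caerulein, 80614 to 94383 in Mist1KO after saline, 92358 to 129576 in wild type after caerulein and 108007 to 141072 in wild type after saline. With caerulein, 6 of the 7 fell in Mist1KO and 1 fell in wild type, beside 13.4% and 9.74% of all probe sets called lower. The 9 neutrophil and macrophage markers found of 10 summed to 1185 to 1355 in Mist1KO after caerulein, 1042 to 1684 in Mist1KO after saline, 928 to 1206 in wild type after caerulein, and 1354 to 1878 in wild type after saline. The 6 lymphocyte markers found of 7 summed to 913.4 to 1649 in Mist1KO after caerulein, 640.0 to 1062 in Mist1KO after saline, 469.3 to 526.6 in wild type after caerulein, and 698.7 to 1418 in wild type after saline. Of the other markers tested, caerulein in Mist1KO raised 1 of 3 duct markers and lowered 1 of 5 islet, 1 of 5 endothelial, 3 of 6 fibroblast and 0 of 2 adipocyte markers. In wild type it raised 1 and lowered 1 of the 3 duct markers and lowered 0 islet, 1 endothelial, 0 fibroblast and 0 adipocyte markers. No marker of these lists was at 0 on any array. The part of these shifts in the changes of Nfil3, Dbp, Tef, Nr1d1 and Bhlhe40 was not tested.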

How the data were processed

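Expression was measured on 12 Affymetrix arrays, 1 per pancreas, from about 10 µg of total RNA each, per the labels' protocols. Per array the authors deposited 1 linear signal intensity for each probe set. Their 2% trimmed means ran from 151.08 to 151.37, so the arrays had been brought to a common mean. The summarising software and detection calls, if made, were not given in the sources used here. The series' design text calls the 3 pancreata of a group biological replicates. Precision is limited by the number of arrays.

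Groups were taken from genotype and injection in the sample titles, and all 12 samples were used. The table held 22516 probe sets, 64 of them controls. The platform annotation named 20240 with 1 symbol, 682 with several and 1530 with none, and no gene was named from several. The offset of 18.7 is the 20th percentile of all values. Controls and probe sets at or below the 30th percentile of mean log2 signal (5.76) were left out. All 12 arrays entered 1 model of 4 group means, fitted by limma 3.58.1 under R 4.3.3 (lmFit, eBayes with a trend, 8 residual and 5.75 prior degrees of freedom), with two-sided p-values adjusted over all tested probe sets (Benjamini-Hochberg). The steps were tested on simulated data. Other offsets, scalings, filters, fits and left-out arrays were tried as alternatives.

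The 9 genes, the further gene lists and the marker lists were chosen with earlier results of these data known. Every probe set of the 9 genes is named. From a list, genes past the threshold in any test were named, smallest adjusted p first and at most 4 per list and comparison. Hlf and Nr3c1 with caerulein in Mist1KO and Lcn2 with caerulein in wild type stand below those 4 and are given beside their other values. Genes named as short of the threshold (Arntl, Wee1, Nampt, Alas1, Elovl3) fall outside that rule and were chosen after their values were seen. The 5 nearest patterns of Nfil3, Dbp and Per1 were taken by Pearson correlation. Promoter sequences are RefSeq's, from GRCm38.p6. Figures come from matplotlib 3.10.9 (Python 3.11.15).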

Additional observations from a re-analysis of the deposited data

Results flagged for a closer look

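The change of Nfil3 with caerulein differed between the genotypes by a test of the difference itself, at -3.10 ± 0.60 on the log2 scale in Mist1KO minus wild type (limma adjusted p = 0.0141, n = 3 per group). It was -2.90 with an offset of 1, where the call was lost (adjusted p = 0.109), and -2.92 with an offset of 50.

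The same difference passed for Rora at -1.47 ± 0.20 (adjusted p = 0.00243), for Fgf21 at -4.96 ± 0.53 (adjusted p = 0.000466) and for Klf9, a Krueppel-like factor induced by glucocorticoids, at -0.74 ± 0.18 (adjusted p = 0.0437). The Mist1KO readings of Fgf21, 7.8 to 14.7, lie under the offset, so its size depends on it (-5.97 with an offset of 1, -4.09 with 50). The calls of Rora and Fgf21 held under all 20 and 19 alternatives run for them. That of Klf9 was lost under 15 of 20 by its brightest probe set, while its dimmer probe sets 1428289_at and 1456341_a_at gave -2.11 (adjusted p = 0.00181) and -1.68 (adjusted p = 0.00380).

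Groups of 3 are too small for the test of a sample far from the others, so the wild type saline array that decides Per1 and replicate 3 of Mist1KO after caerulein are described in the results only.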

How the results depend on the processing

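Over the 11 tested probe sets, 5 comparisons and all alternatives, 1081 of 1134 values kept their direction and side of the threshold, 11 lost a call, 5 gained one and 37 changed sign. Of the sign changes, 36 were of values short of the threshold in both settings. The other was Per1 with caerulein in wild type, -0.55 without wild type saline replicate 3. Under another scaling 4 signs changed: Clock 1418659_at with caerulein in wild type was 0.0658 after quantile normalization and 0.0638 after median centring, and Clock 1418660_at after saline 0.0182 and 0.0228. The other 33 came with 1 array left out, over which the values ranged as follows. With caerulein in Mist1KO, Tef 1438033_at gave -0.35 to 0.0526. With caerulein in wild type, Clock 1418659_at gave -0.12 to 0.0036 and Per1 -0.55 to 0.76. For Mist1KO against wild type after saline, Nfil3 gave -0.45 to 0.0104, Per1 -0.20 to 1.11, Bhlhe40 -0.25 to 0.95, Clock 1418659_at -0.18 to 0.15 and Clock 1418660_at -0.13 to 0.0158. After caerulein, Dbp 1418174_at gave -0.0214 to 0.40, Dbp 1438211_s_at -0.87 to 0.23, Tef 1450184_s_at -0.70 to 0.40, Per1 -0.21 to 0.0022, Nr1d1 -0.10 to 0.55, Bhlhe40 -0.0843 to 0.57 and Clock 1418659_at -0.20 to 0.0164. In the interaction, Dbp 1438211_s_at gave -0.28 to 0.81, Tef 1424175_at -0.34 to 0.0093, Tef 1450184_s_at -0.37 to 0.74, Per1 -1.21 to 0.10, Bhlhe40 -0.80 to 0.40 and Clock 1418659_at -0.26 to 0.0605. The interaction called 0 of the 7 genes with an offset of 1, where Nfil3 had -2.90 at adjusted p = 0.109 (limma). Over all probe sets, caerulein in wild type called 1877 with only the groups compared and 2975 otherwise, and the interaction 328 without a trend and 518 with it. The interaction needs all 4 groups, so no fit to only the groups compared exists.

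Leaving out 1 array at a time, probe sets called ranged from 2635 to 3953 (caerulein in Mist1KO), 2151 to 2992 (caerulein in wild type), 1063 to 2066 (Mist1KO against wild type after saline), 2177 to 3347 (after caerulein) and 271 to 553 (interaction), and genes of the 7 called from 3 to 4, 4 to 6, 0 to 0, 1 to 1 and 1 to 1. The saline count fell by over 1.5 times without Mist1KO saline replicate 1 (1070) or 3 (1063) or wild type saline replicate 2 (1164), and the interaction count without Mist1KO caerulein replicate 1 (271) or 2 (300), Mist1KO saline replicate 1 (310) or 3 (273), or wild type caerulein replicate 2 (343). With the mean of a gene's probe sets the counts were 4, 6, 0, 1 and 1. Of the list genes, 134 of 1210 values lost a call, and beside the left-out arrays named in the results these list counts moved by over 1.5 times. With only the groups compared, 2 and not 4 clock genes rose in wild type, 1 was higher and 0 lower after saline, and for glucocorticoid genes 2 rose in Mist1KO, 1 rose in wild type, and 1 was higher after saline and 1 after caerulein. That fit gave 2 CREB genes that rose in Mist1KO and 0 lower after saline. Median centring gave 2 clock genes that fell in Mist1KO, 0 lower after saline and 2 glucocorticoid genes that rose in Mist1KO, as did the replicate block for the last. Without a filter 0 clock genes were lower and 1 glucocorticoid gene higher after saline, and without a trend 1 and 0 clock genes were higher and lower and 0 glucocorticoid genes higher. Quantile normalization gave 1 glucocorticoid gene higher after saline. A filter at the 50th percentile, which left Fgf21 and other dim genes out, gave 0 CREB genes that fell in Mist1KO.

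Centring arrays on their median moved the median change of all probe sets with caerulein to -0.01 in both genotypes, against -0.13 in Mist1KO and -0.14 in wild type, and the share of higher calls to 59.8% in Mist1KO (43.9% otherwise), 67.8% in wild type (48.5%), 71.5% for the genotypes after saline (54.4%) and 61.8% after caerulein (49.7%). It changed no call of the 9 genes. Arrays with the same replicate number showed no shared deviation from their group means. Their 18 correlations ran from -0.104 to 0.0452, and the 36 between differently numbered arrays from -0.0566 to 0.0935. Low correlations cannot show that the numbers pair no samples. With the replicate block 3536, 2772, 1648, 2903 and 392 probe sets were called in the 5 comparisons, and 3, 5, 0, 1 and 1 of the 7 genes. Without detection calls, signal over background is unknown, which limits the dim values of Per2, Cry1, saline Nfil3 and Fgf21 outside wild type after caerulein.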
